A study of Mus musculus with 20 samples.

Results

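The 10 genes described here encode transforming growth factor beta (TGF-beta) ligands and their receptors, proteins of the latent TGF-beta-binding family, and products that the pathway is known to switch on. They were taken by name from a mouse whole-genome array: Tgfb1, Tgfb2, Tgfb3, Inhba, Ltbp1, Ltbp2, Tgfbr1, Tgfbr2, Smad7 and Ctgf, 10 of its 34797 gene names, with 16 of its 55681 probes. Of the 16 probes, 15 passed the filter on dim signal that left 36930 probes for testing, and every gene kept at least 1. The arrays measured RNA of 20 diaphragms, 1 per female C57Bl/6 mouse, in 5 groups of 4, collected 12 weeks after an injection into the pleural cavity at 8 weeks of age. The control group received 100 µL of vehicle, 0.5% BSA in saline, which all other groups received as the carrier of their fibers. The SFA and LFA groups received 25 µg of short or long amosite asbestos per mouse, the short preparation having been ground from the long fibers, and the NTS and NTL groups received 5 µg of short or long carbon nanotubes. Asbestos and nanotubes therefore differed in mass as well as in material. The short nanotubes were bought from a supplier and the long ones were made in a university laboratory. NTL and NTS therefore differed in source as well as in length. Only part of each diaphragm went into the RNA, and it held muscle together with the pleural surface and any lesion on it.

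TGF-beta is made as a precursor whose propeptide stays wrapped around the growth factor, and latent TGF-beta-binding proteins tie this complex to the extracellular matrix. Release by integrins, proteases or thrombospondin allows the dimer to bind a type II receptor, which activates a type I receptor that phosphorylates SMAD2 and SMAD3. In injured tissue the pathway is best known for driving fibroblasts to become myofibroblasts and to lay down collagen, and the pathway itself induces feedback inhibitors, among them Smad7.

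Levels are given as log2 signal relative to the 75th percentile of the same array, so that 0 is the signal that 75% of the spots lie below. A level of one probe cannot be set against that of another, and of the probes of a gene the brightest stands for it. A change was called when it reached 2-fold (1 on the log2 scale) with an adjusted p under 0.05 in limma, a linear model fitted to all 36930 probes, with Benjamini-Hochberg adjustment over all of them. The median change over all probes was -0.28 in LFA and -0.25 in NTL against control, and -0.26 in NTL against NTS, so that a gene at 0 already stood above the middle of the array. Nothing in the labels links the mice of a group to litters or batches, and the number of arrays limits the precision.

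The 20 arrays had 75th percentile signals of 294 to 996 units, with 53% to 68.1% of spots well above background and no saturated spot. They lay on 3 slides that were also scanned separately, and slide and group were partly tied: 3 of the 4 NTL arrays were on slide 3 and no NTS array was. Muscle markers defined the tissue, with a mean level over 9 muscle genes of 7.01 to 8.75 on every array. The control arrays lay at 8.29 to 8.75, the LFA arrays at 7.16 to 7.77 and the NTL arrays at 7.01 to 7.14. The mean of 10 macrophage markers lay at 1.14 to 1.48 in control, 1.09 to 1.61 in SFA and 1.03 to 1.30 in NTS, and at 2.58 to 3.34 in LFA and 3.15 to 3.42 in NTL. Markers of liver, which lies against the diaphragm, varied within every group, for example from -1.72 to 8.91 in NTS. The mean of 7 liver genes was 0.39 in control, 2.69 in SFA, 2.88 in LFA, 3.97 in NTS and 2.97 in NTL. None of these genes was called or had an unadjusted p under 0.05 in limma against control. The part of liver in the changes below was not tested. The arrays also differed in how well the 5′ parts of transcripts were represented. An index of this was the signal of an upstream minus a downstream probe, averaged over 1125 transcripts and centered across arrays. It ran from -0.56 in SFA replicate 1 to 0.47 in NTS replicate 3. On 5 arrays, 1 in each group, it was under -0.3. The highest index was 0.34 in control, 0.31 in SFA and 0.47 in NTS, but 0.09 in LFA and 0.20 in NTL. Index and group were thus partly tied, also in LFA against control and in NTL against NTS.

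Among the sequences of the array, the probes of the ligands Tgfb1 and Inhba are shown because both read the coding part of the mature growth factor. Both are 60 bases long. The Tgfb1 probe lies at chr7:26489877-26489936 and the Inhba probe at chr13:16118634-16118693, both on the plus strand of NCBI37, the build named in the array files.
Tgfb1: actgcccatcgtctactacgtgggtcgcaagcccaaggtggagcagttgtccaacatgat
Inhba: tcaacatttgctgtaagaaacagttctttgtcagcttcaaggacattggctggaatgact

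The promoters of Ltbp2 and Tgfbr2 are shown because these were the only ones of the 10 genes with a called change. Each runs from 250 bases before to 50 bases after the RefSeq start in GRCm38.p6, on the minus strand, at chr12:84876442-84876741 for Ltbp2 and chr9:116175314-116175613 for Tgfbr2. The capitals mark GTCTG or its reverse complement CAGAC, the core that SMAD proteins are known to bind.
Ltbp2: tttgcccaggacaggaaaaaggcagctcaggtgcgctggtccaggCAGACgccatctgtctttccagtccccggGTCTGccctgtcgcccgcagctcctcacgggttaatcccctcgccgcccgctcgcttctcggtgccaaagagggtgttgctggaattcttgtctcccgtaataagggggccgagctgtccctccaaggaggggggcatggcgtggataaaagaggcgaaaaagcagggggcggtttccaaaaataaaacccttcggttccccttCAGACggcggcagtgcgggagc
Tgfbr2: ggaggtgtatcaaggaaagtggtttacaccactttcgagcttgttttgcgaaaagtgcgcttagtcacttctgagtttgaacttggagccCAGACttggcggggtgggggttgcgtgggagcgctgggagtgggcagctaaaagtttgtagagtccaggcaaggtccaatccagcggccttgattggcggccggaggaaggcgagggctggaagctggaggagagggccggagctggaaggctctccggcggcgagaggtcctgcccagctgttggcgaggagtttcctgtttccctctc

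The Ltbp2 window held the core 3 times and the Tgfbr2 window once, counting both strands. Such a match is a description of letters, since 49.6% of 32851 mouse promoters of the same 300 bases held at least 1. Neither window held the longer CAGACA, which includes CAGAC and was in 21% of promoters, or the palindrome GTCTAGAC, which was in 0.213%. Among the genes without a call, the promoters listed for Tgfb1 and Inhba held no core. That of Tgfb2 held 2, those listed for Ltbp1 held 1 and 2, and those listed for Tgfbr1 held 0 and 1. CAGACA was present in the Tgfb2 promoter and in 1 promoter each of Ltbp1 and Tgfbr1.

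Against control, none of the 10 genes was called after long asbestos and 1, Ltbp2, was called after long nanotubes. The background was 3.94% of all probes called in LFA and 6.81% in NTL. At an unadjusted p under 0.05 in the same limma fit, 3 of the 10 moved in LFA, with Ltbp2 and Inhba higher and Smad7 lower, and 5 moved in NTL, with Ltbp2, Inhba, Tgfbr1 and Tgfbr2 higher and Smad7 lower. At that threshold 23.9% of all probes moved in LFA (6.83% higher, 17% lower) and 23.5% in NTL (7.68% higher, 15.9% lower). The median change of the 10 genes was 0.20 in LFA and 0.39 in NTL, beside the medians of all probes of -0.28 and -0.25. The 10 genes were read by their brightest probes, whereas all probes include dim ones, so the sets are not alike. Ltbp2 in LFA, and Ltbp2 and Tgfbr2 in NTL, had every array above every control array, beside 4.6% and 6.34% of all probes. The counts of called genes lay near the background, and the account below is by gene.

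**Figure D1:**
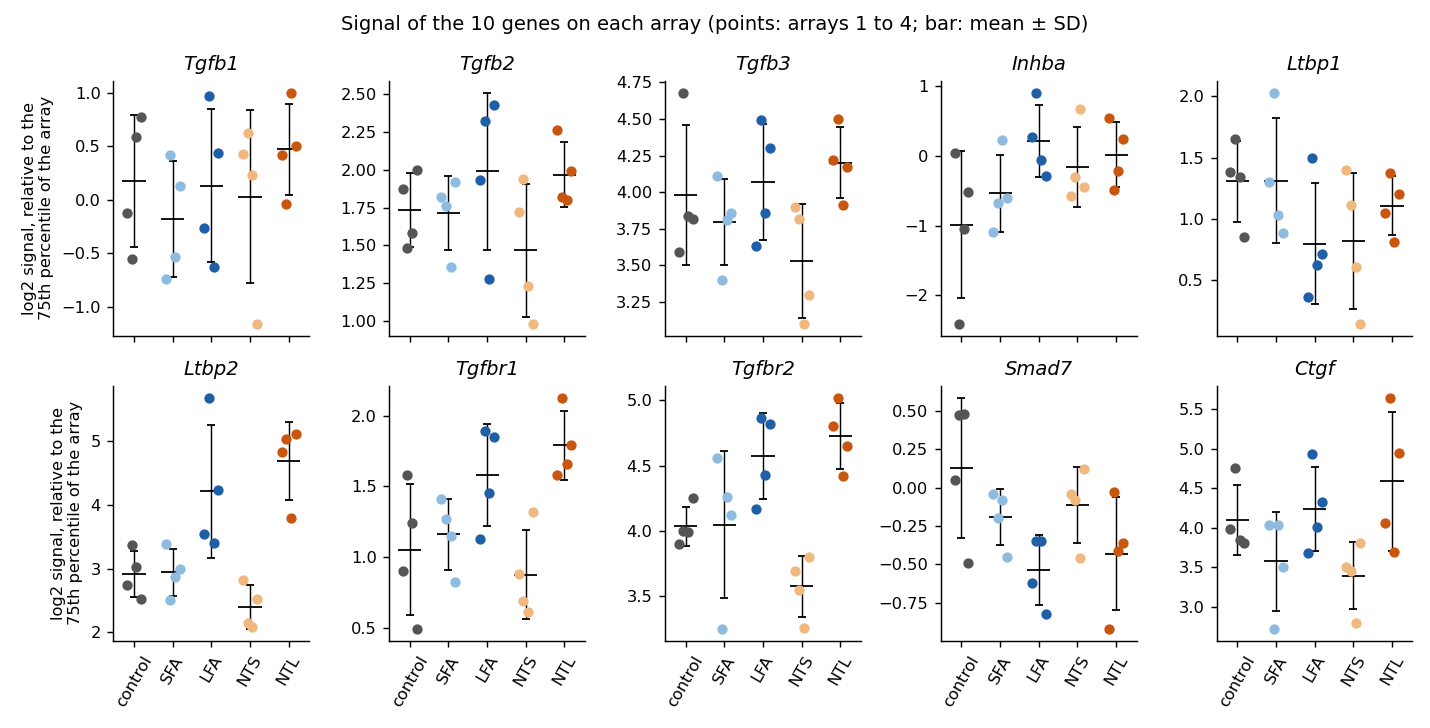
Level of the brightest probe of each of the 10 genes on each of the 20 arrays (y axis, log2 signal relative to the 75th percentile of the array, with its own scale in each panel) by group (x axis). Points are arrays, bars are group means and error bars are 1 SD (n = 4). The 4 NTL arrays of Ltbp2 lie at 3.79 to 5.11, above every control array (2.53 to 3.37), whereas the Tgfb1 arrays of all 5 groups overlap.

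No ligand gene was called against control, and the TGF-beta isoforms did not move at an unadjusted p under 0.05, whereas Inhba did. Tgfb1, the isoform abundant in leukocytes and platelets, lay at -0.12, -0.55, 0.59 and 0.77 on the control arrays. It lay at -0.26, 0.97, -0.63 and 0.44 on the LFA arrays and at 0.42, -0.04, 0.998 and 0.50 on the NTL arrays. All groups overlapped, and the range from lowest to highest array of each group was wider than any difference between group means. The change was -0.04 (95% interval -0.96 to 0.88) in LFA and 0.30 (-0.62 to 1.22) in NTL. These intervals reach close to a 2-fold change on both sides in LFA, so that a change of less than that size was not resolvable with 4 arrays a group. The sign of the LFA value turned with several settings, for example to 0.013 when slide entered the model as a block.

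Tgfb2, an isoform known from epithelial and stromal cells, and Tgfb3, known from mesenchymal tissue, moved by 0.26 and 0.09 in LFA and by 0.24 and 0.22 in NTL. The second Tgfb2 probe, 1799 bases further downstream in the transcript, gave 0.42 and 0.38. None of these differed from control beyond the spread of the arrays, with adjusted p of 0.402 to 0.862. Tgfb3 was lowest in NTS, where it ran from 3.10 to 3.90, and the 4 NTL arrays at 3.91 to 4.50 all lay above these, the lowest only narrowly, a difference of 0.67 (adjusted p = 0.149). The Tgfb2 probes differed by 0.50 and 0.76 in the same comparison, with adjusted p of 0.266 and 0.118.

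Inhba encodes the subunit of activin A, a ligand of the same family that signals through SMAD2 and SMAD3 by its own receptors. Its levels were 0.04, -2.41, -1.05 and -0.51 in control, 0.27, 0.91, -0.05 and -0.28 in LFA, and 0.54, -0.49, -0.22 and 0.25 in NTL. Control replicate 2 was the lowest of the 20 arrays, and the LFA and NTL ranges overlapped that of control only through control replicate 1. The change was 1.20 (95% interval 0.24 to 2.15, adjusted p = 0.126) in LFA and 0.999 (0.05 to 1.95, adjusted p = 0.191) in NTL, and the short fibers gave 0.45 in SFA and 0.82 in NTS. Without control replicate 2 the LFA change was 0.72. With the 5′ to 3′ index as a covariate, a fit chosen after seeing the data, Inhba was called at 1.55 in LFA (adjusted p = 0.0216) and 1.20 in NTL (adjusted p = 0.0349). It was thus not called in the fit used here, and its value depends on 1 control array and on the 5′ to 3′ index.

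Ltbp2 carried the largest change of the 10 genes. Ltbp2 is a matrix protein of the latent TGF-beta-binding family that binds fibrillin but, unlike its relatives, does not bind the latent TGF-beta complex. Its probe lies at chr12:86124167-86124226 on the minus strand (NCBI37). It lay at 2.74, 3.37, 3.03 and 2.53 in control, at 3.39, 2.51, 2.87 and 2.99 in SFA, and at 2.82, 2.15, 2.09 and 2.52 in NTS. The long fibers gave 3.54, 5.68, 3.40 and 4.23 in LFA and 4.83, 5.03, 3.79 and 5.11 in NTL. Every array of both long-fiber groups stood above every control, SFA and NTS array, although LFA replicate 3 exceeded the highest control array and the highest SFA array only narrowly.

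Ltbp2 rose 3.42-fold in NTL against control, 1.77 on the log2 scale (95% interval 0.89 to 2.65, adjusted p = 0.0153). Against the short nanotubes it was 4.90-fold higher, 2.29 on the log2 scale (1.41 to 3.17, adjusted p = 0.00221). In LFA the change was 1.30 against control (0.42 to 2.18, adjusted p = 0.0796) and 1.27 against SFA (adjusted p = 0.208), and neither was called. Normexp background correction called it in LFA against control, at 1.32 (adjusted p = 0.0489), and without LFA replicate 2 the value was 0.81 (adjusted p = 0.177). The groups ranked NTS, control, SFA, LFA and NTL by mean level, and the neighbors NTS and control, control and SFA, and LFA and NTL overlapped. The long fibers did not differ from each other by the test (-0.48 in LFA minus NTL, 95% interval -1.36 to 0.40, adjusted p = 1), at masses that differed. In diaphragm RNA, more cells that use a gene and more RNA of it per cell cannot be told apart.

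The slides bear on these values. With slide as a block, Ltbp2 was no longer called, at 1.50 in NTL against control (adjusted p = 0.0684) and 1.84 in NTL against NTS (adjusted p = 0.0638). Inside slide 2, where 1 NTL array stood beside 2 control and 2 NTS arrays, the differences were 1.78 and 2.35. Inside slide 3, with 3 NTL arrays and 1 control array, NTL was 1.61 higher than control. The NTL differences inside slides were close to the pooled ones, and LFA exceeded control inside each slide, by 1.29, 0.49 and 2.65 on slides 1 to 3. The call in NTL against control was also lost without NTL replicate 4 (1.63, adjusted p = 0.0561).

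**Figure D2:**
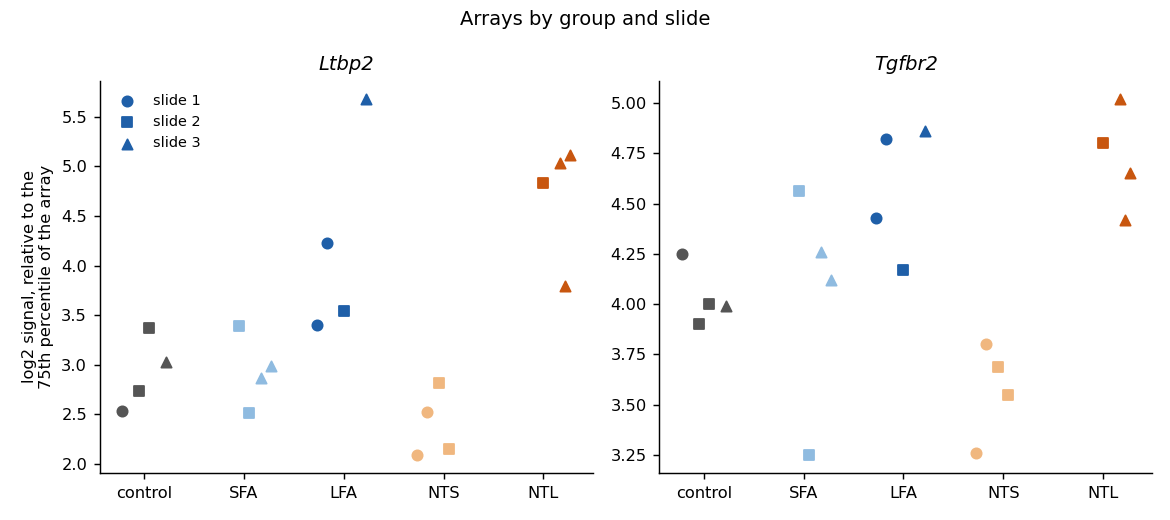
Ltbp2 (left) and Tgfbr2 (right, its brightest probe) on each array (y axis, log2 signal relative to the 75th percentile of the array) by group (x axis) and slide (marker shape). On slide 2 the NTL array of Ltbp2 lies 1.78 above the mean of the 2 control arrays, and the single LFA array of that slide 0.49 above it.

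Ltbp1, which does bind the latent complex and ties it to the matrix, did not follow Ltbp2. Its levels were 0.85 to 1.65 in control, 0.36 to 1.50 in LFA and 0.81 to 1.37 in NTL. The change was -0.51 in LFA (adjusted p = 0.345) and -0.20 in NTL (adjusted p = 0.761). A second Ltbp1 probe, far upstream and designed on another transcript, well above background on 14 of the 20 arrays, gave -0.88 and -1.05, with adjusted p of 0.19 and 0.114. Every LFA and NTL array of the second probe lay below every control array, beside 11.6% and 13.8% of all probes. Its unadjusted p in limma was 0.0403 in LFA and 0.0167 in NTL. In NTL against NTS it gave -0.90 and the brighter probe 0.29, with adjusted p of 0.167 and 0.605. Neither probe was called in any comparison with control.

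Neither receptor was called against control, and 1 of the 2, Tgfbr2, was called in NTL against NTS. Tgfbr2, the type II receptor that binds the ligand, lay at 3.90, 4.00, 3.99 and 4.25 in control, at 4.17, 4.86, 4.43 and 4.82 in LFA, and at 4.80, 5.02, 4.42 and 4.65 in NTL. The NTS arrays lay at 3.69, 3.55, 3.26 and 3.80, below every control and every NTL array. Tgfbr2 was called in NTL against NTS, at 2.22-fold or 1.15 on the log2 scale (95% interval 0.59 to 1.70, adjusted p = 0.0112). Against control it was 0.53 higher in LFA (adjusted p = 0.228) and 0.69 higher in NTL (adjusted p = 0.12), and not called, although every NTL array lay above every control array. These values are of the brighter probe. The other Tgfbr2 probe gave -0.22 in LFA and 0.17 in NTL, and the mean over both gave 0.16 and 0.43. Under quantile normalization it was called in NTL against control, at 1.07 (adjusted p = 0.0244), and with slide as a block it was not called against NTS (1.09, adjusted p = 0.102).

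Tgfbr2 has a second probe 2341 bases further upstream, and the 2 probes disagreed. The upstream probe gave 0.40 in NTL against NTS (95% interval -0.82 to 1.63, adjusted p = 0.698), and the mean over both gave 0.78 (adjusted p = 0.141). It was low on the arrays with a low 5′ to 3′ index: on the 5 arrays under -0.3 it lay between -2.45 and -1.48, and on the other 15 between -1.61 and 0.50. The downstream probe, which carried the call, spanned 3.80 to 5.02 on those 5 arrays and 3.25 to 4.86 on the other 15. With the index as a covariate the downstream probe stayed called in NTL against NTS, at 1.07 (adjusted p = 0.01). Tgfb1 had a like pattern, with -1.16 to -0.04 on the 5 arrays and -0.53 to 0.998 on the other 15.

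**Figure D3:**
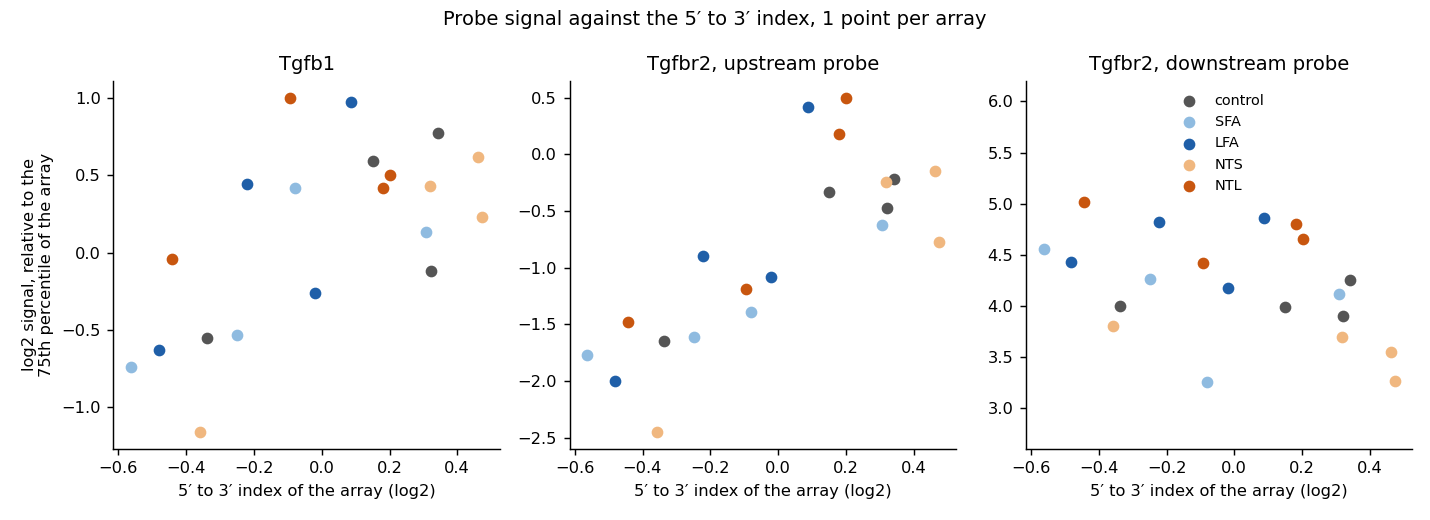
Level (y axis, log2 signal relative to the 75th percentile of the array, with its own scale in each panel) of the Tgfb1 probe and of both Tgfbr2 probes against the 5′ to 3′ index of the array (x axis, log2), 1 point per array colored by group. On the 5 arrays with an index under -0.3 the upstream Tgfbr2 probe lies between -2.45 and -1.48, and the downstream probe covers 3.80 to 5.02.

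Tgfbr1, the type I receptor kinase, lay at 0.90, 1.58, 1.24 and 0.49 in control, at 1.13, 1.89, 1.45 and 1.85 in LFA, and at 1.58, 2.13, 1.66 and 1.79 in NTL. The NTS arrays lay at 0.88, 0.69, 0.61 and 1.32, all under the NTL arrays. The difference between NTL and NTS was 0.92 (95% interval 0.36 to 1.47, adjusted p = 0.0381), which passed the adjusted p and missed the 2-fold size. Against control it was 0.53 in LFA (adjusted p = 0.233) and 0.74 in NTL (adjusted p = 0.095). Tgfbr1 has 3 further probes near background, well above it on 1, 11 and 14 arrays, of which the dimmest was not tested. The other tested probes gave -0.29 and -0.34 in LFA, and the mean over probes was -0.033 there, against 0.53 for the brightest probe, so that the direction in LFA depends on the probe. In NTL against NTS those probes gave 0.15 and 0.85 (adjusted p of 0.907 and 0.57). The mean over probes was 0.64 in that comparison (adjusted p = 0.364).

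Of the 2 genes induced by the pathway, Smad7, the inhibitory SMAD that blocks the type I receptor, was lower and not higher after long fibers. It lay at 0.05, 0.47, 0.48 and -0.49 in control, at -0.62, -0.35, -0.35 and -0.82 in LFA, and at -0.92, -0.03, -0.41 and -0.36 in NTL. The ranges met only through control replicate 4, and the change was -0.66 (95% interval -1.19 to -0.13, adjusted p = 0.127) in LFA and -0.55 (-1.08 to -0.02, adjusted p = 0.191) in NTL. Neither was called. The medians of all probes were also below 0, and the SFA and NTS values were -0.32 and -0.24.

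Ctgf encodes connective tissue growth factor, a matricellular protein and a widely used readout of TGF-beta in fibroblasts. It lay at 3.99, 4.76, 3.84 and 3.81 in control, at 3.68, 4.93, 4.01 and 4.33 in LFA, and at 4.06, 5.65, 3.70 and 4.95 in NTL. These groups overlapped, with changes of 0.14 (95% interval -0.74 to 1.01) in LFA and 0.49 (-0.39 to 1.37) in NTL. Without NTL replicate 2 the NTL value was 0.135. The NTS arrays, at 3.50, 3.46, 2.80 and 3.81, all lay below the lowest control array, one of them barely, a difference of -0.71 (adjusted p = 1). NTL exceeded NTS by 1.20 (0.32 to 2.07, adjusted p = 0.0818), which was not called, while quantile normalization (1.54, adjusted p = 0.0162) and normexp (1.21, adjusted p = 0.0353) called it, as did leaving out NTL replicate 3 (1.49, adjusted p = 0.0426) or control replicate 2 with NTS replicate 4 (1.33, adjusted p = 0.04). With slide as a block it was 0.85 (adjusted p = 0.38), and without NTL replicate 2 it was 0.84 (adjusted p = 0.24).

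**Figure D4:**
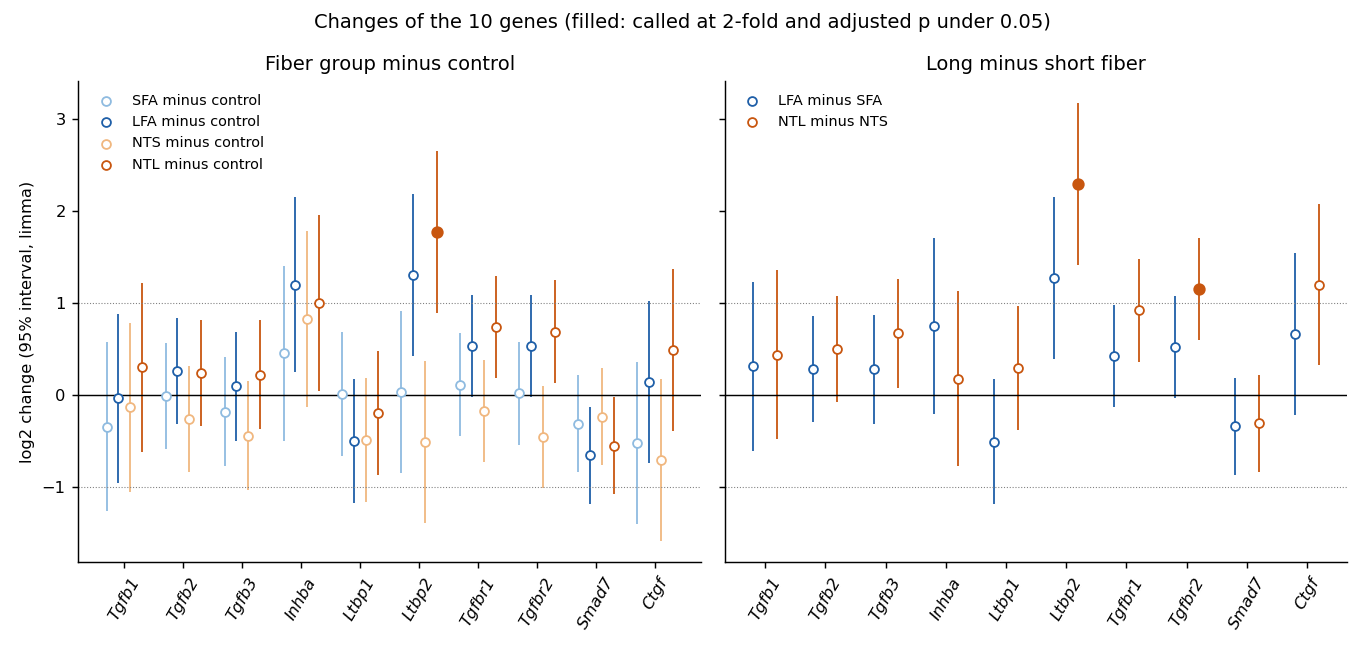
Change of each of the 10 genes (y axis, log2; brightest probe) in each fiber group against control (left) and in long against short fibers (right), with 95% intervals from limma; filled points were called at 2-fold and an adjusted p under 0.05, and dotted lines mark 2-fold. Filled points are Ltbp2 in NTL against control (1.77) and Ltbp2 (2.29) and Tgfbr2 (1.15) in NTL against NTS.

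No change of the 10 genes was called after short fibers. This held in SFA and in NTS, where 0% of all probes were called in limma, and none passed an unadjusted p under 0.05, where 2.28% of probes did in SFA and 3.49% in NTS. The changes ran from -0.53 (Ctgf) to 0.45 (Inhba) in SFA and from -0.71 (Ctgf) to 0.82 (Inhba) in NTS. In NTS only Inhba had a change above 0, which 43.4% of all probes had, and the median of the 10 genes was -0.36 beside -0.06 for all probes. Ctgf and Tgfbr2 had every NTS array below every control array, beside 0.865% of probes.

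Between long and short fibers, the calls of the 10 genes were for nanotubes, whose long and short preparations also differed in source. Of the 10 genes, 2 were called in NTL against NTS, Ltbp2 and Tgfbr2, where 7.6% of all probes were. At an unadjusted p under 0.05, Ltbp2, Tgfbr1, Tgfbr2, Tgfb3 and Ctgf were higher, where 25.1% of probes moved in either direction and 9.84% were higher. Ltbp2, Tgfbr1, Tgfbr2 and Tgfb3 had every NTL array above every NTS array, which 7.61% of probes had. None was called in LFA against SFA, where 1.16% of probes were, and 1, Ltbp2, had an unadjusted p under 0.05, beside 12.5% of probes. The difference between the nanotube and asbestos length effects was tested directly and was called for none of the 10 and for no probe of the array. At an unadjusted p under 0.05 it was met by none of the 10 and by 3.45% of probes, with a value of -1.02 for Ltbp2 (asbestos minus nanotubes, 95% interval -2.27 to 0.22, adjusted p = 1). None of the 10 was called between LFA and NTL or between SFA and NTS, where 0% of probes were called and none had an unadjusted p under 0.05, as 1.55% and 5.83% of probes did, at 25 µg of asbestos against 5 µg of nanotubes.

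Other genes of the pathway were read from 6 lists of 81 genes, of which 80 were tested. In LFA 6 were called higher and 1 lower, beside 2.22% and 1.72% of all probes. In NTL 10 were called higher and 2 lower, beside 3.63% and 3.18% of probes. At an unadjusted p under 0.05, 18 were higher and 8 lower in LFA (6.83% and 17% of probes) and 21 higher and 10 lower in NTL (7.68% and 15.9%). No gene of the lists was called in SFA or NTS. In NTL against NTS 18 were called higher and none lower, beside 4.89% and 2.71% of probes. In LFA against SFA 3 were called higher and none lower, beside 1.03% and 0.133% of probes. The calls were in the lists of latency and activation genes and of target genes more than in those of ligands, receptors, SMADs or inhibitors, and this difference between lists was not tested.

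Of the 12 latency and activation genes, 2 were called higher in LFA and 3 in NTL, with list medians of 0.44 and 0.80. In LFA 4 were higher and 2 lower at an unadjusted p under 0.05, and in NTL 5 higher and 1 lower. The lower ones, not called, were Ltbp4, a latent TGF-beta-binding protein, at -0.62 in LFA and -0.66 in NTL (adjusted p of 0.106 and 0.0729), and Itgb6, an integrin subunit that releases latent TGF-beta on epithelia, at -1.19 in LFA (adjusted p = 0.105). Thbs1 encodes thrombospondin 1, which can release TGF-beta from its latent complex. It lay between -1.41 and 0.86 in control, between 0.91 and 3.74 in LFA and between 2.19 and 3.27 in NTL, changes of 2.54 (adjusted p = 0.0167) and 2.59 (adjusted p = 0.00809). All arrays of both long-fiber groups lay above all control arrays, LFA replicate 3 only narrowly, beside 4.6% and 6.34% of all probes. That array, at 0.91, lay below SFA replicates 1 and 3 (1.51 and 1.99) and NTS replicate 1 (1.16). Thbs1 was also 1.17 higher in SFA than in control (unadjusted p = 0.0484 in limma) and was not called there. Lrrc33, whose product presents latent TGF-beta on macrophages and microglia, rose by 1.76 in LFA and 1.94 in NTL, with adjusted p of 0.00384 and 0.000805. It lay at 1.31 to 2.30 in control, 3.11 to 4.03 in LFA and 3.42 to 4.26 in NTL, beside the macrophage marker means given above, and the part of these cells in the change was not tested.

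Fbn1, the fibrillin of the microfibrils that anchor latent TGF-beta-binding proteins, rose by 1.25 in NTL (adjusted p = 0.0241) and was at 0.71 in LFA (adjusted p = 0.191). The mean of 8 fibroblast markers was 2.41 to 2.62 in control, 2.55 to 3.24 in LFA and 2.98 to 3.23 in NTL. Of these 8 markers Lum was called, at 1.49 in NTL, and none was called in LFA. At an unadjusted p under 0.05, 3 of them were higher in NTL and 2 in LFA. Their part in the Ltbp2 and Fbn1 changes was not tested.

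Among the 11 other ligands none was called higher, and Bmp7, a bone morphogenetic protein often set against TGF-beta in fibrosis, fell by 1.30 in NTL (adjusted p = 0.0152). It ran from -0.29 to 0.69 in control and from -1.49 to -0.99 in NTL. Every NTL array of Bmp7 thus lay below every control array, beside 13.8% of all probes. Bmp7 changed by -0.50 in SFA and by -0.35 in NTS. In LFA its change was -0.66 (adjusted p = 0.2), with LFA replicate 3 at 0.27 inside the control range. Gdf15 had the largest value of the list, 1.89 in LFA and 1.74 in NTL, and was not called, with adjusted p of 0.11 and 0.127. In LFA 1 ligand was higher and 2 lower at an unadjusted p under 0.05, and in NTL 1 was higher and 3 lower. Those lower and not called were Bmp5 in both groups, at -0.58 and -0.60, Bmp7 in LFA and Bmp4 in NTL, at -0.86.

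Of the 10 other receptors tested, Bmpr1b, a bone morphogenetic protein type I receptor, was the only one called. It fell by 1.12 in LFA (adjusted p = 0.0483) and by 1.21 in NTL (adjusted p = 0.0235), and the LFA arrays spanned only -2.28 to -2.26 beside -1.71 to -0.65 in control. Of the 14 SMADs and their regulators none was called against control, with list medians of 0.05 in LFA and -0.05 in NTL and 1 and 2 genes higher at an unadjusted p under 0.05. In NTL against NTS, Pmepa1, a feedback inhibitor that TGF-beta induces, was called at 1.31 (adjusted p = 0.0157). Of the 10 extracellular inhibitors none was called in any comparison, with 1 gene lower in LFA and 2 lower in NTL at an unadjusted p under 0.05.

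The 23 other target genes held most of the calls, with 4 called higher in LFA and 7 in NTL and none lower. Their list medians were 0.87 and 0.94. In LFA 12 were higher and 2 lower at an unadjusted p under 0.05, and in NTL 13 higher and 3 lower. None of the lower ones was called. Acta2, the smooth muscle actin of myofibroblasts and vessel walls, was at -0.91 in LFA and -0.64 in NTL (adjusted p of 0.0846 and 0.2). Adam12 was at -0.70 and -0.61 (adjusted p of 0.134 and 0.187), and Id1, a target chiefly of bone morphogenetic proteins, was at -1.06 in NTL (adjusted p = 0.0591). Timp1, an inhibitor of metalloproteinases, lay between -0.13 and 1.32 in control, between 3.10 and 5.63 in LFA and between 3.52 and 5.97 in NTL, changes of 3.74 (adjusted p = 0.00114) and 4.60 (adjusted p = 0.000104). Cthrc1, a secreted protein of activated fibroblasts, rose by 3.61 (adjusted p = 0.009) and 4.46 (adjusted p = 0.000949), its control level resting on 2 arrays well above background. Fn1, fibronectin, rose by 2.34 (adjusted p = 0.0202) and 2.38 (adjusted p = 0.01), and NTS replicate 4 at 7.66 stood among the long-fiber arrays, above the other NTS arrays at 4.39 to 6.26. Lox, which crosslinks collagen, was at 1.63 in LFA (adjusted p = 0.0503) and rose by 2.26 in NTL (adjusted p = 0.00581).

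Targets of the list are induced by other signals as well, and several stood apart from Ctgf and Smad7. Col3a1 was called in both long-fiber groups and Col1a1 and Col1a2 in NTL, all of them fibrillar collagen chains. Postn, Loxl2, Snai1 and Cdkn1a were among those called in NTL against NTS and not against control, and the difference between these comparisons was not tested.

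**Figure D5:**
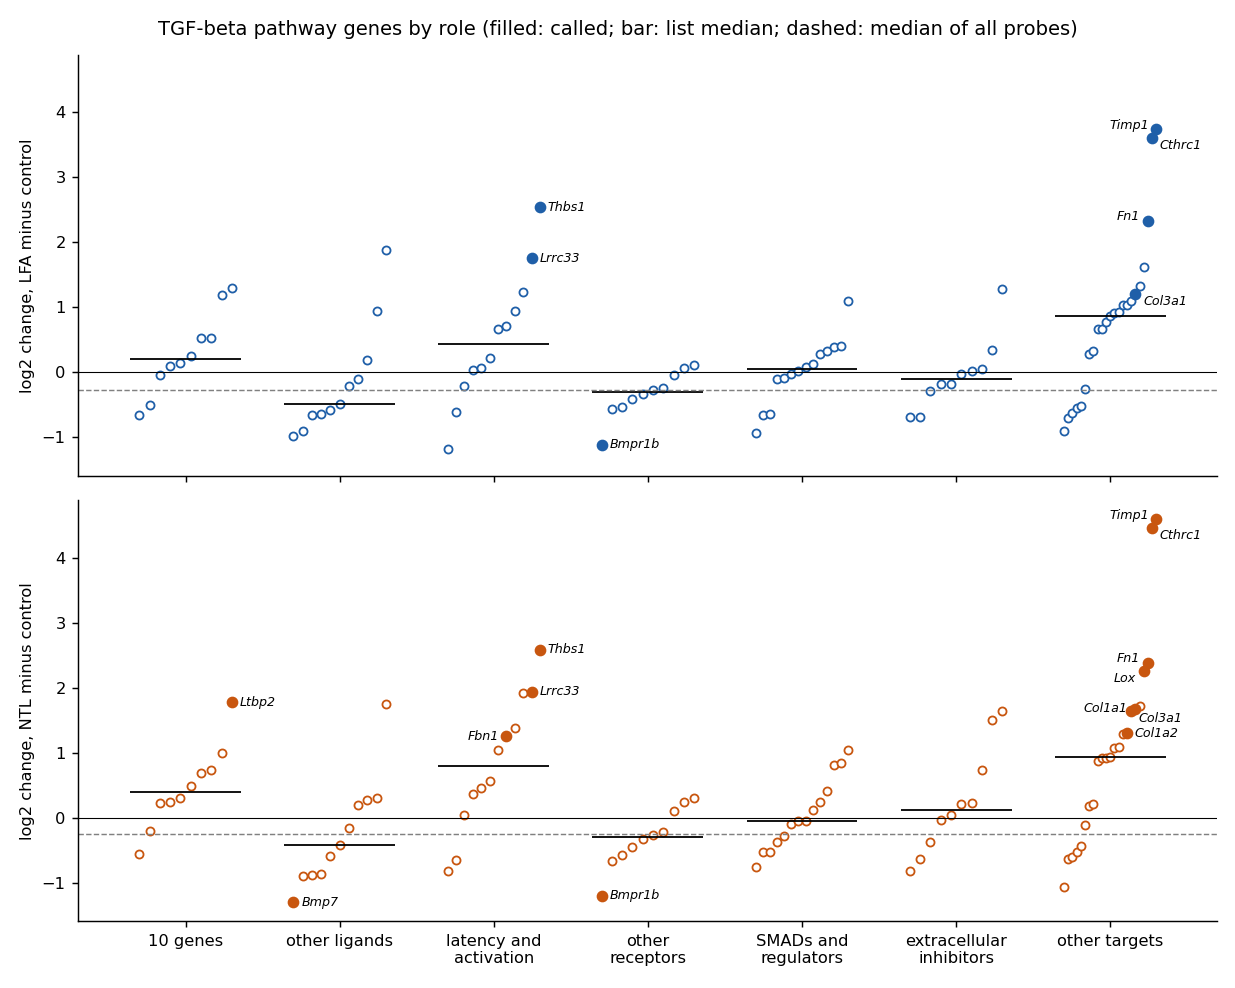
Change against control (y axis, log2) in LFA (top) and NTL (bottom) of the 10 genes and of the 6 lists of other pathway genes (x axis), each point being the brightest probe of 1 gene, sorted by value inside a list. Filled points with names were called, short bars are list medians and the dashed line is the median of all probes (-0.28 in LFA, -0.25 in NTL); the target list has 4 filled points in LFA and 7 in NTL, all above 0.

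Across the 20 arrays, the genes whose level ran most like that of Ltbp2, among 25375 genes, were Cx3cl1 (Pearson r of 0.97), Bmper (0.96) and Runx1 (0.96). Cx3cl1 encodes the chemokine fractalkine, Bmper a secreted modulator of bone morphogenetic proteins and Runx1 a transcription factor. Their changes in NTL were 1.47, 2.51 and 1.42, and those in NTS were -0.31, -0.17 and -0.50. This is a description over arrays of 5 groups that share slides and normalization.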

How the data were processed

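Per the file headers, Agilent Feature Extraction 10.7.3.1 made the 1-color (Cy3) intensity values from 20 scanned 60K mouse arrays annotated on NCBI37. Deposited log2 values in the series table, the authors' normalized group means, gave no replicates and entered only as an alternative. Here each array's processed intensity was taken as log2 minus the 75th percentile of its 59305 noncontrol spots. Outlier-flagged spots were dropped (92 to 204 per array) and spots of a probe averaged. Probes well above background on at least 4 of 20 arrays were kept. All 5 groups entered 1 limma fit (limma 3.58.1, R 4.3.3) without covariates, with Benjamini-Hochberg adjustment, and the step was tested on simulated data. Python 3.11.15, pandas 2.3.3 and matplotlib 3.10.9 served for the rest.

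The text names all 10 genes, and of each pathway list up to 4 called genes with the largest smaller change of LFA and NTL; Gdf15, the fibroblast markers, Pmepa1, the uncalled genes that were lower at an unadjusted p under 0.05, the collagens and the genes called only between NTL and NTS were named after their values were seen. Members, lists and tests were chosen with earlier results of these data known. Promoters came from RefSeq (GRCm38.p6) by symbol, and none is shown for Tgfb3, Ctgf or Smad7. The values of 1 target gene, counted in its list, are not reported here. The p-values measure the spread between mice. Alternatives were quantile normalization, normexp (offset 50), other filters, the mean over probes, slide or replicate number as a block, only the groups compared, the methods' test (Welch's test over the 5 groups after a 2-fold filter, 10942 probes), the authors' table, each array left out, and 2 that were added once the data had been seen: a covariate for the 5′ to 3′ index, and control replicate 2 with NTS replicate 4 left out together. Replicate numbers pair no mice per the labels.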

Additional observations from a re-analysis of the deposited data

How the results depend on the processing

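Under 11 other settings, the number of the 10 genes called stayed at 0 in SFA, NTS, LFA against SFA, LFA against NTL, SFA against NTS and the difference of length effects wherever these could be computed. In LFA it rose from 0 to 1 under normexp, the index covariate and the methods' test. The methods' test gave Ltbp2 an adjusted p of 0.0303. This p is from Welch's test over all 5 groups together and is not of LFA against control alone. By that test 180 probes were counted as called in SFA and 194 in NTS, where limma called 0. In NTL the number of the 10 genes called went from 1 to 2 under quantile normalization and the index covariate and to 0 with slide as a block. In NTL against NTS it went from 2 to 5 under quantile normalization (adding Tgfb3, Tgfbr1 and Ctgf), to 4 without control replicate 2 and NTS replicate 4, to 1 with the mean over all probes and to 0 with slide as a block. Leaving out each array gave 0 to 1 in NTL, 2 to 3 in NTL against NTS and 0 to 0 in the others. The cause of these differences was not tested.

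Signs turned, without a call, for Tgfb1 in LFA (0.013 with slide as a block, 0.36 with the index covariate, 0.0059 in the authors' table, and -0.32 to 0.21 with arrays left out), Tgfbr1 in LFA (-0.033, mean over probes), Ctgf in LFA (-0.094 with the index covariate, and -0.094 to 0.36 with arrays left out), Tgfb3 in LFA (-0.049 to 0.32 with arrays left out) and Ltbp1 in NTL against NTS (-0.31, mean over probes). Same-numbered arrays did not deviate together: over 40 pairs the correlation ran from -0.676 to 0.689, with a median of -0.091. The replicate block gave 0, 1 and 2 genes called in LFA, NTL and NTL against NTS, with Ltbp2 at an adjusted p of 0.0211 in NTL, and moved no call.

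All probes called in LFA were 1455, and 466 without LFA replicate 2, 588 with only the groups compared and 2640 with the index covariate. In NTL they were 2514, and 1328 with slide as a block, 1391 without NTL replicate 4 and 4129 with the covariate. In NTL against NTS they were 2806, and 756 with slide as a block and 5499 without NTS replicate 4. Quantile normalization moved the median change of all probes from -0.28 to -0.08 in LFA, from -0.25 to -0.09 in NTL and from -0.26 to -0.04 in NTL against NTS, and the share of calls that were higher from 56.4% to 75.9%, from 53.3% to 72.3% and from 64.4% to 78.8%. The authors' table gives group means and allowed no count of calls.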
